A study of Mus musculus with 8 samples.

Results

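Imprinted genes are transcribed mainly from the allele inherited from a given parent. The 42 listed mouse genes, out of 55421 gene identifiers in the count table, were chosen by symbol as described imprinted genes. They lay in 19 imprinted clusters or single loci on 10 chromosomes, with 18 of the 42 on chromosome 7. By the allele described as active, 13 are maternally expressed, 21 are paternally expressed, and 8 are imprinted only in some tissues or isoforms. Biallelic genes that host or neighbour an imprinted gene were put among these 8. In the annotation 35 are protein-coding and 7 are noncoding.

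The RNA came from E14 mouse embryonic stem cells of 129/Ola background. Every group, controls included, lacked the miR-290-295 microRNA cluster and was grown with serum and LIF on gelatin. Cells were transfected for 36 h with 5 nM of a siPOOL, which combines many small interfering RNAs to a single transcript: siTfap4 against the E-box factor Tfap4, siWiz against the zinc finger protein Wiz, siZic2 against the zinc finger factor Zic2, and siNeg, the negative control siPOOL. Each of the 4 groups had 2 libraries, biological duplicates by the series design, made with a 3' end kit from 500 ng of RNA. How many cells took it up is not given in the sources used here.

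Imprinting rests on DNA methylation laid down in the germ line at control regions. After fertilization these marks are kept by zinc finger proteins that recognise the methylated sequence, the corepressor Trim28 and the maintenance methyltransferase Dnmt1. Many clusters hold a long noncoding RNA on the parental chromosome whose protein-coding neighbours are silent. Several imprinted genes act on embryonic growth, through insulin-like growth factor signalling or the cell cycle. Cultured embryonic stem cells are known to lose or gain imprints, so lines differ at several loci. The counts analysed here carry no allele information, and levels are totals over both alleles.

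Libraries held 8326675 to 13788856 counts, and both siTfap4 libraries (8326675 and 8829051) were the smallest. Levels are in CPM, counts relative to library sizes that TMM factors correct for differences in RNA composition. Tfap4 had 12.0 and 15.7 CPM in siTfap4 against 33.4 and 37.1 in siNeg (log2 fold change -1.34, SE 0.25, adjusted p = 0.00417). Wiz had 16.8 and 19.7 CPM in siWiz against 49.9 and 46.1 in siNeg (log2 -1.40, SE 0.24), with an adjusted p of 0.708. Zic2 had 2.15 and 1.83 CPM in siZic2 against 4.49 and 2.21 in siNeg and was not called (log2 -0.75, SE 0.45, adjusted p = 1). Adjusted p-values are those of the quasi-likelihood test of edgeR, Benjamini-Hochberg corrected over all 14647 genes tested, and "called", "rose" and "fell" mean an adjusted p under 0.05. The 9 embryonic stem cell markers checked were all tested and summed to 2410.3 and 2592 CPM in siTfap4, below the other 6 libraries (2892 to 3979.7). Against siNeg, Dppa5a fell in siTfap4 from 376 and 489 to 3.72 and 9.26 CPM (log2 -6.05, adjusted p = 0.000365) and Nanog from 399 and 314 to 77.6 and 178 (log2 -1.48, adjusted p = 0.0142). Pou5f1, which encodes Oct4, rose from 24.4 and 27.5 to 57.4 and 48.1 CPM (log2 1.02, adjusted p = 0.0159). Its level in siNeg was low beside that of the marker Sox2 (861 and 758 CPM), and whether all its reads were counted is not known. The other 6 markers were not called. The part of this difference in the siTfap4 values of imprinted genes was not tested. Of 12 primitive endoderm markers 8 were tested, with 0 higher and 1 lower in siTfap4 against siNeg (Sox7, log2 -2.20, adjusted p = 0.0440). Their summed level was mostly Sparc, with 609 and 471 CPM in siTfap4 and 315 to 418 in the other 6 libraries, and Afp was at 0 in all. Trophectoderm markers, of which Ascl2 is itself an imprinted gene of the list, summed to 147 to 285 CPM. Most of this sum was Tfap2c, with 132 to 266 CPM, while Cdx2 and Elf5 had at most 3 and 4 counts in a library. Neural markers summed to 81.8 to 111 CPM. Fibroblast markers stayed between 7.86 and 12.5 CPM with Postn at 0 in all, and most of this sum was Thy1 (6.68 to 11.6 CPM).

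Of the 42 imprinted genes, 32 passed the expression filter: 11 of the 13 maternal, 13 of the 21 paternal and all 8 of the third class. The other 10 were Igf2, Airn, Zim1, Mest, Plagl1, Nnat, Magel2, Kcnq1, Rasgrf1 and Nap1l5, of which 8 are paternally expressed. The highest of these 10 was Nnat, which encodes a small membrane protein of neurons, with 59 counts over the 8 libraries together. Mest shares 912 exon bases on opposite strands with Copg2 (3373 counts), so reads of Mest may have been left out. Meg3, a maternally expressed long noncoding RNA, had the highest mean level at 852 CPM. It was followed by the tetraspanin gene Cd81 at 266, the ubiquitin ligase gene Ube3a at 262, the noncoding RNA Kcnq1ot1 at 244, the receptor adaptor gene Grb10 at 172 and the amino acid transporter gene Slc38a4 at 153 CPM. Per kilobase of exon, Cd81 led with 92.5 CPM per kb, ahead of the splicing protein gene Snrpn with 68.8, Meg3 with 47.1, Slc38a4 with 36.0 and the retrogene Mcts2 with 33.7. Transcripts are counted at their 3' ends here, so division by exon length can overstate short genes, and these values are only a description.

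**Figure D1:**
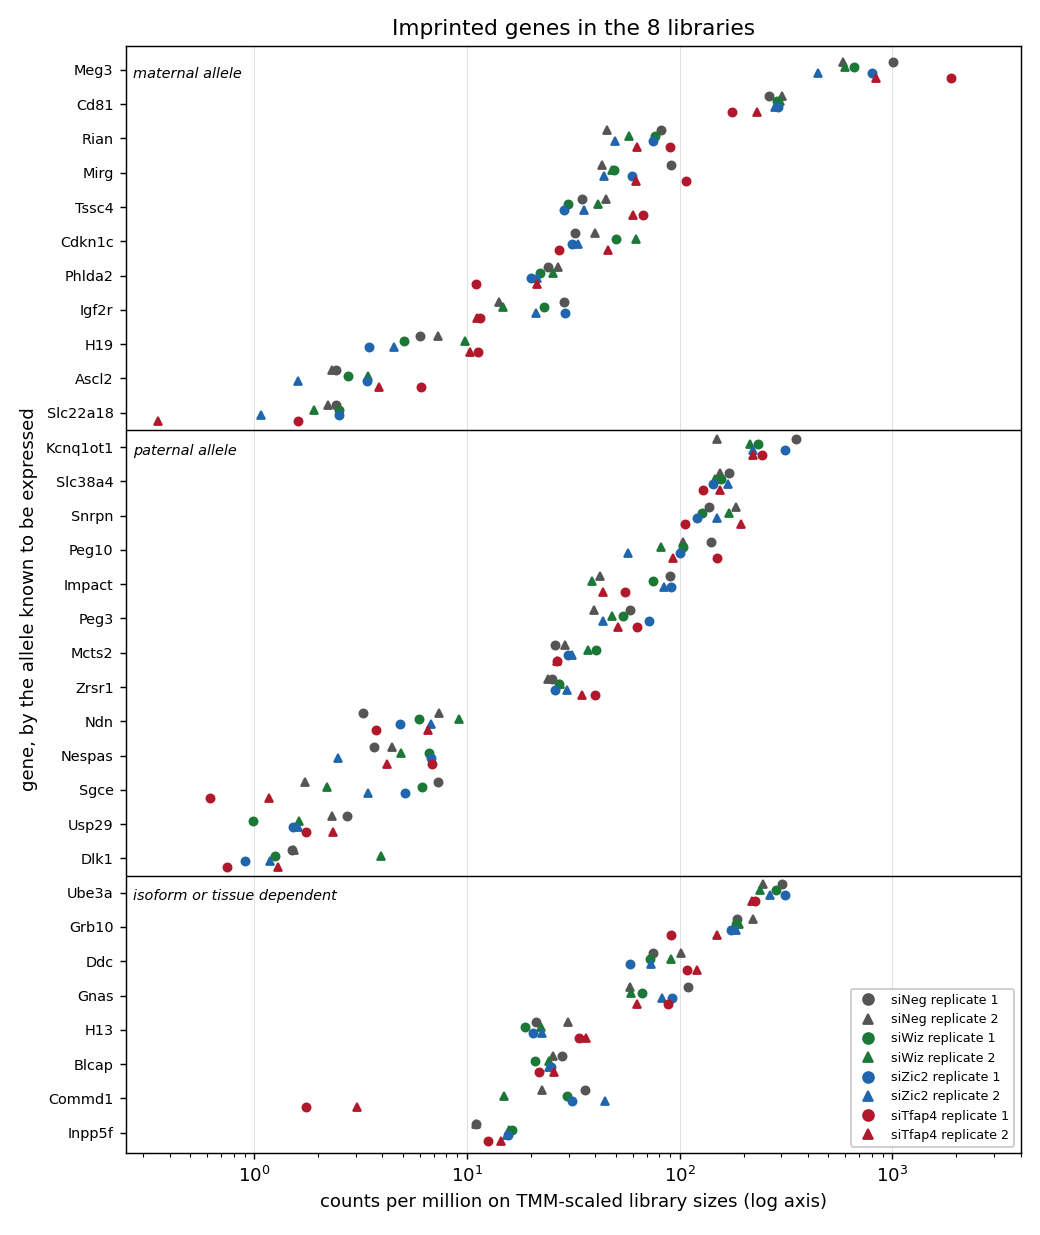
Level of the 32 tested imprinted genes in each library, in CPM on a log axis, grouped by the allele described as active. Colours mark the siPOOL and shapes the replicate; the siTfap4 libraries stand apart at Commd1, and Meg3 is the highest gene in every library.

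In siTfap4 against siNeg, 0 of the 32 tested imprinted genes rose and 2 fell, Commd1 and Sgce. Commd1, a host gene, is in the third class, without a fixed parental allele, and Sgce is paternally expressed. Over all genes tested 15.9% were called in this comparison, 4.24% higher and 11.7% lower. The share of imprinted genes called was 6.25%. With the filter lowered to 1 count it was 12.2% of 41, against 10.9% of all 26969 genes then tested. That filter lets in many genes with very few counts, so its background is unlike that of the main filter. An excess of imprinted genes cannot be read from it. Their median log2 fold change was -0.07, against 0.01 for all genes, with 13 values above 0 and 19 below. Libraries of the 2 groups did not overlap for 16 of the 32 (7 with siTfap4 higher, 9 lower), where the background was 59.1% (29.6% higher, 29.5% lower). How many of all genes had siTfap4 above or below every other library was not counted. In bulk RNA, fewer cells of a type and less RNA per cell cannot be told apart.

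Commd1 encodes a copper metabolism and NF-kappaB regulatory protein, and is the host of Zrsr1, a paternally expressed retrogene for a U2AF-related splicing factor. Commd1 (ENSMUSG00000051355) lies on GRCm38 chromosome 11, 22896136 to 22982382, minus strand. Zrsr1 (ENSMUSG00000044068), a gene of a single exon, sits inside it on the plus strand at 22972005 to 22976496, and the exons of both share 412 bases on opposite strands. In siTfap4 Commd1 was called and Zrsr1 was not, and a part of their promoters in this was not tested. The bases just before the annotated start of each are shown because the host and its retrogene have separate promoters. They are from RefSeq promoter tables for GRCm38.p6, on each gene's own strand, at chr11:22982383-22982534 for Commd1 (152 bases) and chr11:22971755-22972004 for Zrsr1 (250 bases). The Commd1 stretch is the part of its RefSeq window of 250 bases that lies before the annotated gene. Neither stretch holds CAGCTG, an E-box form that TFAP4 is known to bind, or TGCCGC, the core of the motif bound by the imprint-keeping factor ZFP57, on either strand, so no base is in capitals.
Commd1: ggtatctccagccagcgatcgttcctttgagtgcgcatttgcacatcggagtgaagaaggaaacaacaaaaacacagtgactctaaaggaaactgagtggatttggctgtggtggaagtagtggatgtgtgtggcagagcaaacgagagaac
Zrsr1: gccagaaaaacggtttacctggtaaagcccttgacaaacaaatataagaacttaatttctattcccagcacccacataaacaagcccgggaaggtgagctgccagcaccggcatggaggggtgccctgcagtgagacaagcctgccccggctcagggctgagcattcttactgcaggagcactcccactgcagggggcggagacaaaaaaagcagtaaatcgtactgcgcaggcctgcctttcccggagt

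Commd1 had 14 and 26 counts in siTfap4, 430 and 235 in siNeg, 330 and 156 in siWiz, and 450 and 414 in siZic2. In CPM these were 1.74 and 3.05 in siTfap4, 35.7 and 22.6 in siNeg, 29.4 and 14.9 in siWiz, and 31.2 and 44.5 in siZic2. Both siTfap4 libraries were below every other library, and the remaining 6 overlapped between groups except that siWiz lay below siZic2. Commd1 fell 12.1-fold against siNeg (log2 -3.60, SE 0.43, adjusted p = 0.000415). It was 9.20-fold lower than in siWiz (log2 -3.20, SE 0.43, adjusted p = 0.000953) and 15.7-fold lower than in siZic2 (log2 -3.97, SE 0.43, adjusted p = 0.000223). The call was made under all 15 alternative settings in each of these 3 comparisons, with log2 values against siNeg between -4.08 and -3.21. Zrsr1 had 39.8 and 34.6 CPM in siTfap4, 25.2 and 23.9 in siNeg, 27.0 and 27.5 in siWiz, and 25.8 and 29.5 in siZic2. Its siTfap4 libraries were above the other 6, but the difference from siNeg was not called (log2 0.60, SE 0.23, adjusted p = 0.0941). Gm28048, a gene model that shares 294 exon bases with Commd1 on the same strand, had 0 counts in all libraries.

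Sgce encodes epsilon-sarcoglycan, a membrane protein of the dystrophin complex, and shares a bidirectional promoter region with Peg10, a retrotransposon-derived gene needed in placenta. Both are paternally expressed. Sgce (ENSMUSG00000004631; chromosome 6, 4674350 to 4747207, minus strand) starts head to head with Peg10 (ENSMUSG00000092035; 4747306 to 4760517, plus strand). Sgce had 0.62 and 1.17 CPM in siTfap4, 7.32 and 1.73 in siNeg, 6.15 and 2.20 in siWiz, and 5.13 and 3.44 in siZic2. The siTfap4 libraries were the lowest of the 8, while siNeg replicate 2 was close to them. Sgce fell 5.01-fold against siNeg (log2 -2.32, SE 0.73, adjusted p = 0.0463) from 88 and 18 counts to 5 and 10. Without siNeg replicate 1 the log2 value was -0.91 (adjusted p = 0.511), and without siTfap4 replicate 1 or 2, or siZic2 replicate 1 or 2, the adjusted p was 0.271, 0.0604, 0.0571 and 0.0549. Peg10, read from the other side of the same promoter region, had 149 and 93.4 CPM in siTfap4 against 139.7 and 104 in siNeg (log2 -0.01, SE 0.31). Its levels were 104 and 81.6 CPM in siWiz and 100.4 and 57.4 in siZic2. In siZic2, Peg10 had the smallest p of the imprinted genes against siNeg, with libraries that did not overlap, and was not called (log2 -0.62, SE 0.31, adjusted p = 1). That log2 value was -1.05 without siZic2 replicate 1, -0.26 without siZic2 replicate 2 and -0.36 without siNeg replicate 1.

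**Figure D2:**
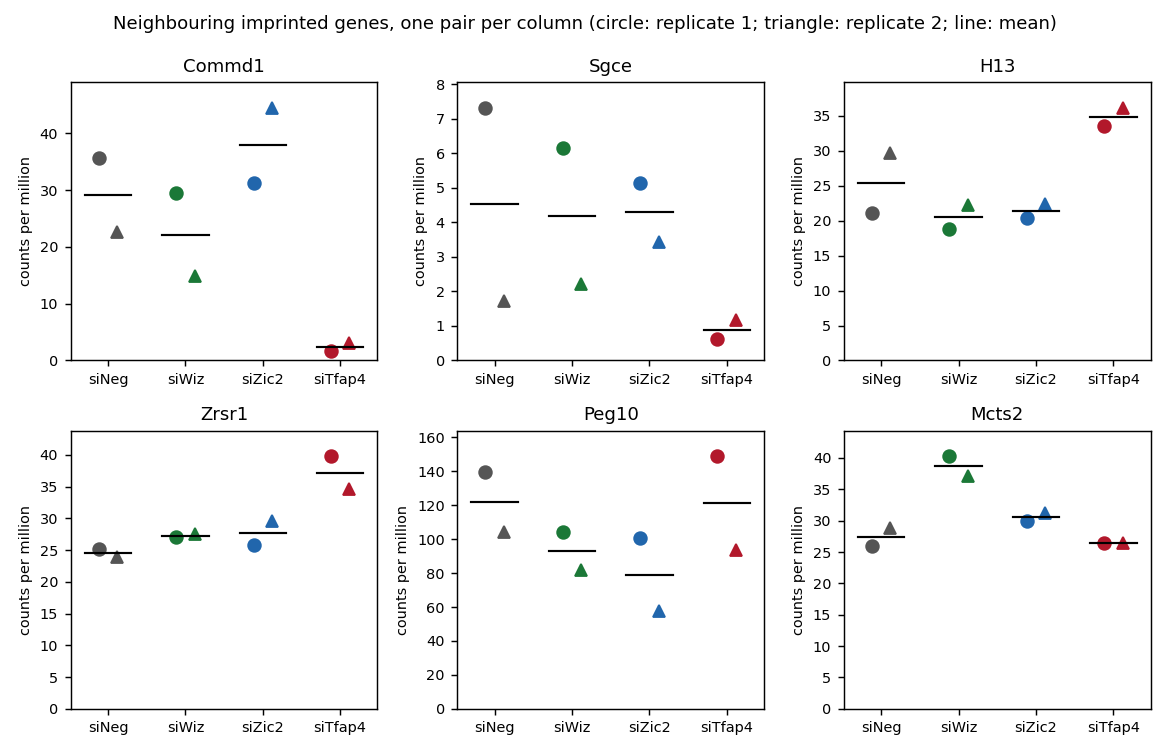
CPM of 3 pairs of neighbouring imprinted genes, one pair per column, by siPOOL (circle replicate 1, triangle replicate 2, line the mean of both; each vertical axis starts at 0). Commd1 lies at 1.74 and 3.05 CPM in siTfap4 while its inner retrogene Zrsr1 lies at 39.8 and 34.6.

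Another pair of host and retrogene lies on chromosome 2, with no shared exon bases. H13 encodes signal peptide peptidase (152669461 to 152708670, plus strand). Mcts2, a paternally expressed retrogene for a translation factor related to Mcts1, lies in an intron of H13 on the same strand (152687035 to 152687946). The Mcts2 promoter lies in a germ line methylated CpG island, and transcription from it is known to change where H13 transcripts end. The RefSeq bases before each annotated gene are shown, at chr2:152669211-152669460 for H13 (250 bases, 18 CpG) and chr2:152686898-152687034 for Mcts2 (137 bases, 12 CpG), plus strand. The Mcts2 stretch is cut where its gene model begins, so these CpG counts are over unlike lengths. In full RefSeq windows of 250 bases, H13 held 18 CpG and Mcts2 20. Capitals mark TGCCGC.
H13: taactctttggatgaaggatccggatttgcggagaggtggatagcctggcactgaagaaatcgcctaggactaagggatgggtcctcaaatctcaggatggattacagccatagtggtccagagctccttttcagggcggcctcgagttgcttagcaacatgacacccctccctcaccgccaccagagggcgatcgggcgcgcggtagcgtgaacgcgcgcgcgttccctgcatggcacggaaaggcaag
Mcts2: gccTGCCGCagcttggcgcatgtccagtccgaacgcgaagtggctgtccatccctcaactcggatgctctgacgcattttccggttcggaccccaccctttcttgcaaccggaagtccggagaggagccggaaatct

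H13 had 33.5 and 36.2 CPM in siTfap4, 21.1 and 29.7 in siNeg, 18.8 and 22.2 in siWiz, and 20.4 and 22.4 in siZic2. Its siTfap4 libraries were above all others, and the difference was not called against siNeg (log2 0.46, adjusted p = 0.228), siWiz (log2 0.77, adjusted p = 0.0574) or siZic2 (log2 0.70, adjusted p = 0.0599). Against siWiz it was called under 5 of 15 alternatives, with adjusted p from 0.0289 to 0.0497. Mcts2 had 26.4 and 26.5 CPM in siTfap4, 25.9 and 28.9 in siNeg, 40.3 and 37.1 in siWiz, and 29.9 and 31.2 in siZic2. The siWiz libraries were the highest. Mcts2 had the second smallest p of the imprinted genes in siWiz against siNeg and was not called (log2 0.50, SE 0.23, adjusted p = 1).

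The Dlk1-Meg3 cluster on chromosome 12 holds the paternally expressed Dlk1, a membrane ligand related to those of Notch, and the maternally expressed noncoding RNAs Meg3, Rian and Mirg. Rian hosts small nucleolar RNAs and Mirg hosts microRNAs. Loss of Meg3 expression is known in mouse stem cell lines whose cluster has gained methylation, so its level is often used to judge a line. Meg3 (ENSMUSG00000021268; 109541001 to 109571726, plus strand) has a RefSeq promoter stretch at chr12:109540746-109540995 with a single match to TGCCGC. The match is on the other strand, so it reads GCGGCA here and is in capitals.
Meg3: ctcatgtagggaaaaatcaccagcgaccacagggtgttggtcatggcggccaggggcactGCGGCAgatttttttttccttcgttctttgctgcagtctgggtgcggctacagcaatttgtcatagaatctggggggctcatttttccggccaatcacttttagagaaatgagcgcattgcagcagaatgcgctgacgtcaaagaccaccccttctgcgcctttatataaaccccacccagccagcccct

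Meg3 had 1881 and 839 CPM in siTfap4, 1006 and 583 in siNeg, 657 and 596 in siWiz, and 803 and 449 in siZic2. Replicate 1 was above replicate 2 in every group, by 2.24 times in siTfap4, 1.73 times in siNeg, 1.79 times in siZic2 and 1.1 times in siWiz, and the siTfap4 and siNeg libraries overlapped. The log2 fold change of siTfap4 against siNeg was 0.78 (SE 0.38, adjusted p = 0.177). It was 0.07 without siTfap4 replicate 1, 1.24 without siNeg replicate 1 (adjusted p = 0.130) and 0.42 without siNeg replicate 2 (adjusted p = 0.552), and was called without siTfap4 replicate 2 (log2 1.23, adjusted p = 0.0282). Against siWiz and siZic2 the siTfap4 libraries were higher without overlap, each with a log2 value of 1.12 and adjusted p of 0.0657 and 0.0503. With the filter of 1 count, Meg3 was called higher in siTfap4 than in siNeg, siWiz and siZic2 (adjusted p = 0.0221, 0.000265 and 0.000332). The replicate block gave the same calls (adjusted p = 0.0449, 0.0143 and 0.00687). DESeq2 called it against siWiz (adjusted p = 0.0201) and siZic2 (0.0159), and RLE size factors against siZic2 alone (0.0499).

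Rian had 90.0 and 63.2 CPM in siTfap4, 81.2 and 45.4 in siNeg, 76.8 and 57.9 in siWiz, and 74.7 and 49.8 in siZic2. Mirg had 107 and 62.0 CPM in siTfap4, 90.5 and 42.9 in siNeg, 49.2 and 47.8 in siWiz, and 59.5 and 43.9 in siZic2. Both showed replicate 1 above replicate 2 in all 4 groups, as Meg3 did. Neither was called in any comparison under the main settings (log2 0.27 and 0.34 in siTfap4 against siNeg). Without siTfap4 replicate 2, Mirg was called higher in siTfap4 than in siWiz (log2 1.14, adjusted p = 0.0359) and siZic2 (log2 1.04, adjusted p = 0.0445), and with the filter of 1 count it was called against siWiz (adjusted p = 0.0332). Dlk1 was near the lower limit of the test, at 0.744 and 1.29 CPM in siTfap4, 1.5 and 1.54 in siNeg, 1.25 and 3.92 in siWiz, and 0.901 and 1.18 in siZic2. Its highest value was siWiz replicate 2, and the log2 value of 0.76 against siNeg was not called (SE 0.60). All of the 4 genes had a negative log2 value in siZic2 against siNeg, between -0.55 and -0.02, and none was called.

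**Figure D3:**
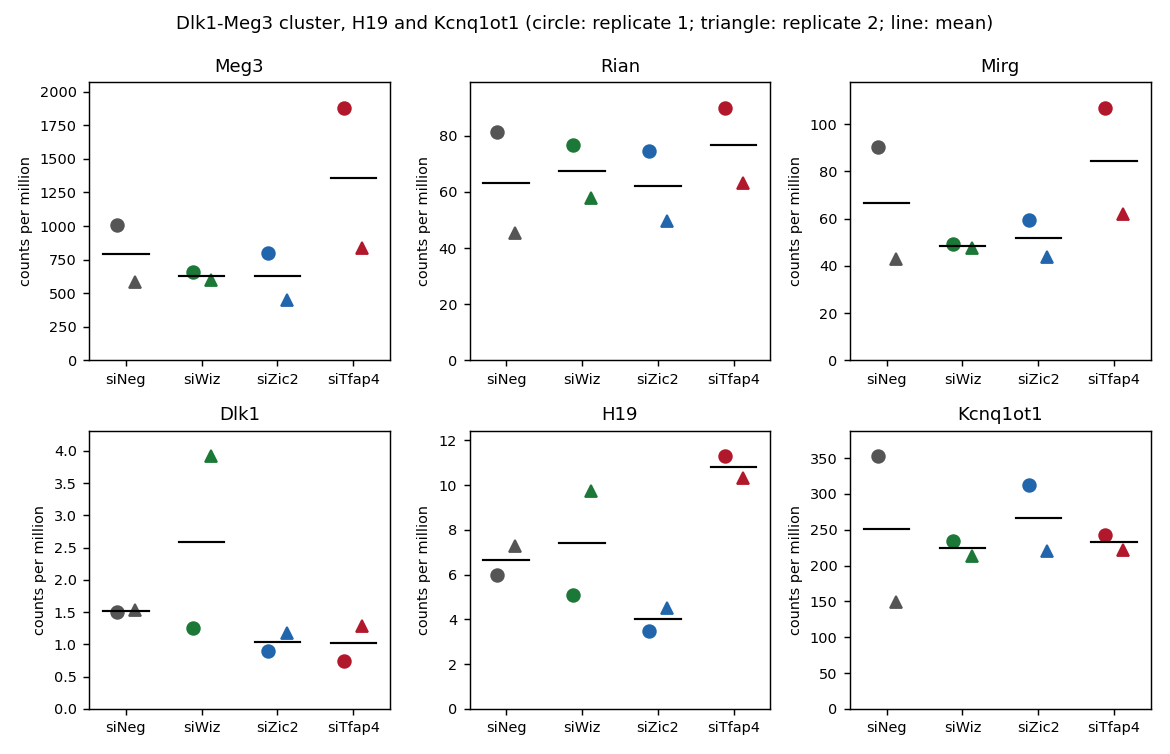
CPM of the Dlk1-Meg3 cluster genes, H19 and Kcnq1ot1 by siPOOL (circle replicate 1, triangle replicate 2, line the mean of both; each vertical axis starts at 0). Meg3, Rian, Mirg and Kcnq1ot1 have replicate 1 above replicate 2 in all 4 groups, and both siTfap4 libraries have the highest H19 values, 11.3 and 10.3 CPM.

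The insulin-like growth factor axis is represented by the ligand Igf2, the noncoding RNA H19 beside it, and Igf2r, the receptor that carries Igf2 to the lysosome. Igf2 (ENSMUSG00000048583; chromosome 7, 142650766 to 142666816, minus strand) had 0 counts in all 8 libraries. With 84208978 counts in all, 3 counts correspond to 0.0356 CPM, which is the upper limit a count of 0 allows, for counting error only. An overlapping gene model, Gm49394, shares 62.8% of the exon bases of Igf2 on the same strand, and also had 0 counts. Reads that fall on both models may have been left out in counting, so absence of Igf2 RNA is not shown. H19 (ENSMUSG00000000031; chromosome 7, 142575529 to 142578143, minus strand), maternally expressed from the same cluster, had 11.3 and 10.3 CPM in siTfap4, 5.99 and 7.30 in siNeg, 5.08 and 9.74 in siWiz, and 3.47 and 4.52 in siZic2. The siTfap4 libraries were the highest and the siZic2 libraries the lowest of the 8. H19 was 2.72-fold higher in siTfap4 than in siZic2 (log2 1.44, SE 0.37, adjusted p = 0.0151). This call was lost without siTfap4 replicate 1 (adjusted p = 0.0845), siZic2 replicate 1 (0.142) or siZic2 replicate 2 (0.0573). Neither differed from siNeg by a call, with log2 values of 0.70 (SE 0.36, adjusted p = 0.194) in siTfap4 and -0.74 (SE 0.37, adjusted p = 1) in siZic2, where H19 had the second smallest p of the imprinted genes.

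Igf2r (chromosome 17, 12682406 to 12769664, minus strand) had 11.5 and 11.1 CPM in siTfap4, 28.6 and 14.1 in siNeg, 23.0 and 14.7 in siWiz, and 28.9 and 21 in siZic2. Both siTfap4 libraries were the lowest of the 8. Igf2r was 2.20-fold lower in siTfap4 than in siZic2 (log2 -1.14, SE 0.35, adjusted p = 0.0327) and was not called against siNeg (log2 -0.92, SE 0.35, adjusted p = 0.0891). Leaving out any of the 4 libraries of siTfap4 and siZic2 ended the call between them, with adjusted p from 0.0586 to 0.211. Against siNeg it was called without siNeg replicate 2 (log2 -1.35, adjusted p = 0.0235) and with the filter of 1 count (adjusted p = 0.0336), while without siNeg replicate 1 the log2 value was -0.30 (adjusted p = 0.654). Airn, the paternal noncoding RNA antisense to Igf2r that silences it in differentiated tissue, had 12 counts over the 8 libraries.

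Grb10 encodes an adaptor that dampens signalling from insulin and growth factor receptors, and Ddc, its neighbour on chromosome 11, encodes the aromatic amino acid decarboxylase. Grb10 had 91.1 and 149 CPM in siTfap4, 186 and 220.3 in siNeg, 184 and 189 in siWiz, and 175 and 183 in siZic2. Both siTfap4 libraries lay below all others, and the difference from siNeg missed the threshold (log2 -0.76, SE 0.25, adjusted p = 0.0579). It passed under 5 of 15 alternatives, among them DESeq2 (adjusted p = 0.0340) and leaving out siTfap4 replicate 2 (log2 -1.17, adjusted p = 0.00712). Without siTfap4 replicate 1 the log2 value was -0.45 (adjusted p = 0.354). Ddc had 108 and 121 CPM in siTfap4, 74.9 and 101 in siNeg, 72.3 and 90.6 in siWiz, and 58.2 and 73.4 in siZic2. Its siTfap4 libraries were the highest, and it was 1.75-fold higher than in siZic2 (log2 0.80, SE 0.24, adjusted p = 0.0312). That call was also lost without any of these 4 libraries, with adjusted p from 0.0738 to 0.269. Against siNeg, Ddc had a log2 value of 0.39 (adjusted p = 0.288).

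The Kcnq1ot1 cluster on chromosome 7 is organised by Kcnq1ot1, a paternal noncoding RNA that runs against Kcnq1, and 7 of its 8 listed genes were tested. Kcnq1ot1 had 243 and 222 CPM in siTfap4, 353 and 149 in siNeg, 234 and 214 in siWiz, and 312 and 221 in siZic2. The 2 siNeg libraries held the highest and the lowest of the 8 values, so every other group lay within them. The cyclin-dependent kinase inhibitor gene Cdkn1c had 49.9 and 62.3 CPM in siWiz against 32.1 and 40.0 in siNeg, 31.0 and 33.1 in siZic2, and 27.0 and 45.8 in siTfap4. It had the smallest p of the imprinted genes in siWiz against siNeg, without a call (log2 0.64, SE 0.27, adjusted p = 1).

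Cd81, which encodes a tetraspanin of the cell surface, had 176 and 232 CPM in siTfap4, 264 and 303 in siNeg, 288 and 297 in siWiz, and 289.9 and 281 in siZic2. The siTfap4 libraries were the lowest, without a call against siNeg (log2 -0.48, SE 0.23, adjusted p = 0.165). Its neighbour Tssc4, which encodes a protein of spliceosome assembly, had 67.0 and 60.3 CPM in siTfap4, 34.7 and 44.9 in siNeg, 29.9 and 41.3 in siWiz, and 28.6 and 35.6 in siZic2. The siTfap4 libraries were the highest of the 8. Tssc4 was 1.79-fold higher in siTfap4 than in siWiz (log2 0.84, SE 0.25, adjusted p = 0.0415) and 1.99-fold higher than in siZic2 (log2 0.99, SE 0.26, adjusted p = 0.0153). Against siNeg it had a log2 value of 0.68 (SE 0.25, adjusted p = 0.0831), and it was called with the replicate block (log2 0.7, adjusted p = 0.0403). The call against siZic2 was lost without siTfap4 replicate 1, siZic2 replicate 1 or siZic2 replicate 2, and the call against siWiz without siTfap4 replicate 1, siWiz replicate 1 or either siZic2 library, with adjusted p from 0.0611 to 0.329.

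The growth-restraining gene Phlda2, the trophoblast factor gene Ascl2 and the transporter gene Slc22a18 were not called in any comparison with all 8 libraries. In siTfap4 against siNeg their log2 values were -0.65 (SE 0.30), 1.07 (SE 0.46) and -1.24 (SE 0.67), each with libraries that did not overlap. Without siTfap4 replicate 2, Phlda2 was called lower in siTfap4 than in siNeg (log2 -1.21, adjusted p = 0.0136), siWiz (log2 -1.11, adjusted p = 0.0200) and siZic2 (log2 -0.92, adjusted p = 0.0391). Ascl2 and Slc22a18 were low, with 266 and 162 counts over the 8 libraries.

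In the Snrpn-Ube3a region, Ube3a had 226 and 218 CPM in siTfap4, 304 and 246 in siNeg, 285 and 239.6 in siWiz, and 314 and 265 in siZic2. Its lowest values were those of siTfap4, with a log2 value of -0.31 against siNeg (SE 0.23, adjusted p = 0.372). Ube3a shares 1803 exon bases on opposite strands with Snhg14, which had 4131 counts over all libraries. Snrpn ranged from 106 to 195 CPM and Ndn, which encodes the growth-suppressing protein necdin, from 3.24 to 9.17 CPM. Both had replicate 2 above replicate 1 in all 4 groups, and neither was called in any comparison. Slc38a4, which encodes a transporter of neutral amino acids, had 129 and 155 CPM in siTfap4, 169.9 and 154 in siNeg, 157 and 147 in siWiz, and 143 and 169.5 in siZic2. All 4 groups overlapped, and its log2 values against siNeg ran only from -0.19 to -0.05.

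The remaining tested genes were the zinc finger gene Peg3 and the deubiquitinase-family gene Usp29, Blcap, Gnas and its antisense RNA Nespas, Impact, and the phosphatase gene Inpp5f. None was called in any of the 6 comparisons under the main settings. Peg3 lay between 39.5 and 71.7 CPM and Usp29 between 0.981 and 2.74 CPM. Gnas, which encodes the stimulatory G protein alpha subunit, lay between 58.6 and 109 CPM, and Nespas between 2.47 and 6.82 CPM, with 988 exon bases shared on opposite strands. Impact, which encodes a regulator of the stress kinase Gcn2, ranged from 38.6 to 91.3 CPM, with 75.1 and 38.6 in siWiz alone. Its siTfap4 libraries lay below those of siZic2 (log2 -0.82, SE 0.35, adjusted p = 0.107), a difference that was called under 3 of 15 alternatives, among them the filter of 1 count (log2 -0.86, adjusted p = 0.0166) and the compared groups alone (log2 -0.86, adjusted p = 0.0279). Inpp5f had 11.0 and 11.0 CPM in siNeg and was above that in each of the other 6 libraries (12.5 to 16.2), without a call (log2 0.30, 0.54 and 0.49 in siTfap4, siWiz and siZic2).

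In siWiz against siNeg, 0 of the 32 imprinted genes were called, where the background was 0% of the 14647 genes. At an unadjusted p under 0.05 there were 2 imprinted genes, Cdkn1c and Mcts2, and 266 genes in all. DESeq2 called 0 imprinted genes and 1 gene in all. Log2 values ran from -0.96 (Usp29) to 0.76 (Dlk1), with a median of -0.10 against 0.00 for all genes. Libraries did not overlap for 8 genes, 6 higher and 2 lower, against a background of 25.1% (12.3% higher, 12.8% lower).

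In siZic2 against siNeg, edgeR again called 0 imprinted genes, with a background of 0%, and DESeq2 called 0. At an unadjusted p under 0.05 there were 0 imprinted genes and 86 genes in all. Log2 values ran from -0.74 (H19) to 0.49 (Inpp5f), with a median of -0.06 against 0.00 for all genes. Libraries did not overlap for 11 genes, 3 higher and 8 lower, against a background of 23.8% (12.1% higher, 11.7% lower).

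**Figure D4:**
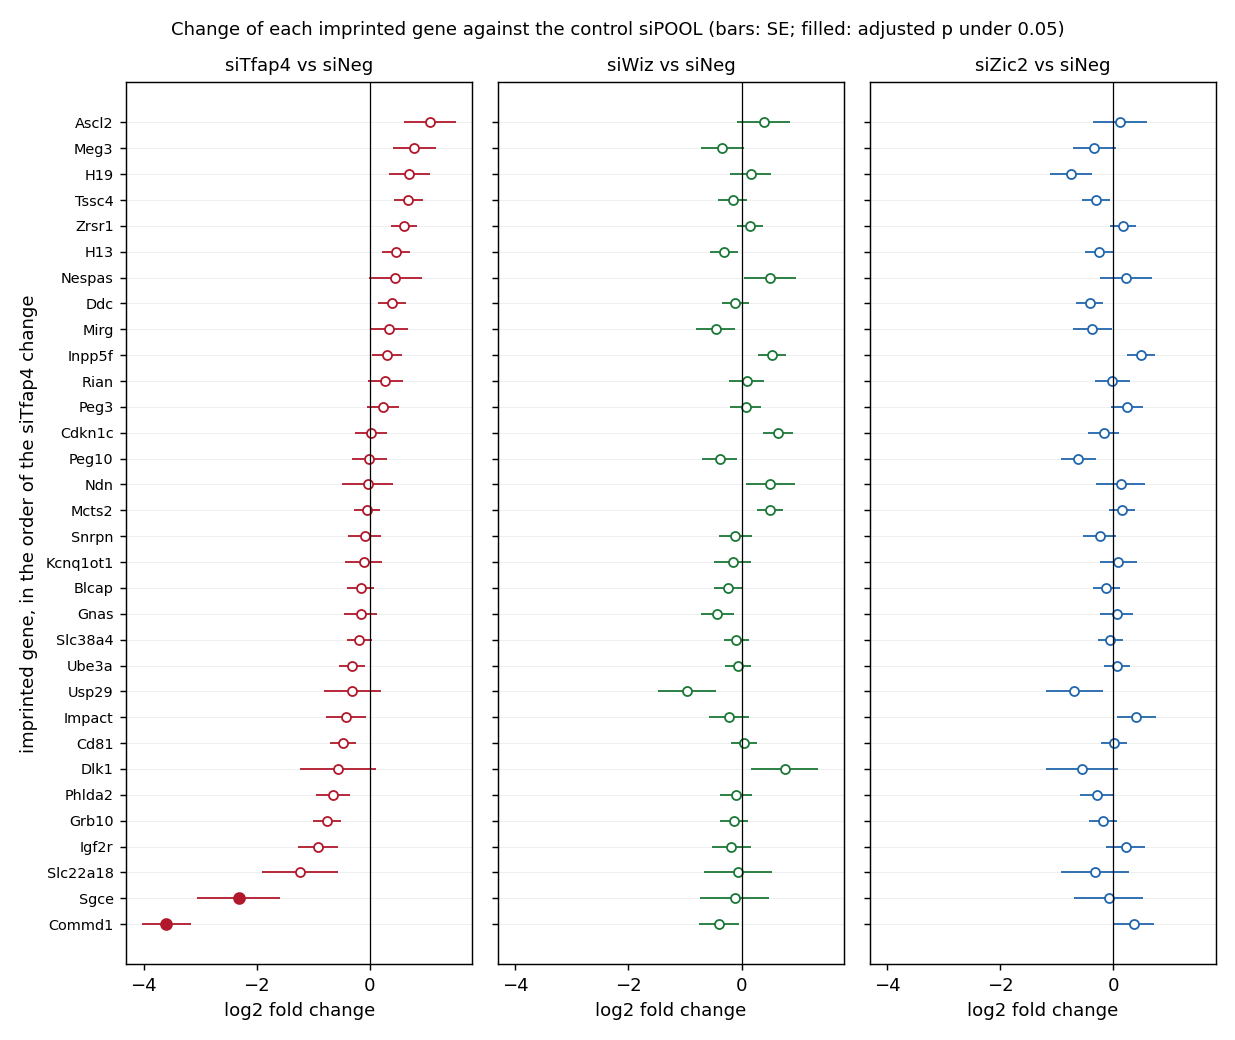
Log2 fold change of the 32 tested imprinted genes against siNeg for each siPOOL, with bars of 1 SE and filled points for calls, in the order of the siTfap4 values. Commd1 at -3.60 and Sgce at -2.32 are the filled points; the 3 panels share the siNeg libraries, so their values are not independent.

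Between siPOOLs, siTfap4 against siWiz called 1 imprinted gene higher, Tssc4, and 1 lower, Commd1, with a background of 15.1% (4.66% higher, 10.4% lower). In siTfap4 against siZic2, H19, Tssc4 and Ddc were higher and Commd1, Igf2r and Sgce lower, or 18.8% of the 32 against a background of 23.1% (8.41% higher, 14.7% lower). With the filter of 1 count these shares were 19.5% and 13.8%, the latter over a background with many genes of very few counts. Sgce was 4.75-fold lower there (log2 -2.25, SE 0.73, adjusted p = 0.0416), on 5 and 10 counts. Without siTfap4 replicate 1, siZic2 replicate 1 or siZic2 replicate 2, only Commd1 was still called against siZic2. Calls against siWiz also varied with the library left out, over all genes as well as among imprinted genes, and Commd1 kept its call each time. In siWiz against siZic2 edgeR and DESeq2 called 0 imprinted genes, with a background of 0%, and 3 had an unadjusted p under 0.05, Cdkn1c, H19 and Commd1 (384 genes in all). These pairs share libraries with the comparisons against siNeg.

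By parental allele, the 11 tested maternally expressed genes had a median log2 value of 0.27 in siTfap4, -0.07 in siWiz and -0.29 in siZic2 against siNeg. The 13 paternally expressed genes had medians of -0.09, -0.09 and 0.09, and the 8 others -0.16, -0.18 and -0.03. Summed over the class, maternally expressed genes held 2390.2 and 1349 CPM in siTfap4, 1572 and 1112 in siNeg, 1207 and 1157 in siWiz, and 1345 and 943 in siZic2. Without Meg3 the sums lay between 494 and 566 CPM in all 8 libraries. Paternally expressed genes summed to 826 and 838 CPM in siTfap4 and 1020.1 and 744 in siNeg, and ran from 789 to 916 in the other 4 libraries. Of the 6 tested noncoding genes, 5 had a log2 value above 0 in siTfap4 against siNeg, with a median of 0.40 and no call, and of the 26 coding genes 8 did. Of these 5, Meg3, Rian and Mirg belong to the same cluster, and their libraries and those of Nespas overlapped with siNeg. The median over all genes was 0.01, and the share of all genes above 0 was not counted.

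Factors that set, keep or read imprints were counted from a separate list of 32 genes, of which 31 were tested. In siTfap4 against siNeg, 1 rose and 2 fell, where the background was 15.9% of all genes (4.24% higher, 11.7% lower). The gene that rose was Ehmt2, a histone H3 lysine methyltransferase, from 62.1 and 61.3 to 148 and 89.5 CPM (log2 0.95, SE 0.27, adjusted p = 0.0302). Eed, a core subunit of Polycomb repressive complex PRC2, fell from 245 and 273 to 49.2 and 124 CPM (log2 -1.58, SE 0.34, adjusted p = 0.00886). Uhrf1, which brings Dnmt1 to hemimethylated DNA, fell from 159 and 139.8 to 62.7 and 91.1 CPM (log2 -0.96, SE 0.25, adjusted p = 0.0231). The list's median log2 value was 0.00, against 0.01 for all genes. In siWiz and in siZic2 edgeR called 0 of the 31, and 1 in each had an unadjusted p under 0.05 in edgeR. That gene was Wiz itself in siWiz and, in siZic2, Dnmt3l, the cofactor of de novo methylation (log2 -0.51, SE 0.23, adjusted p = 1). Over all genes, DESeq2 called 1 in siWiz and 0 in siZic2.

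A further list of 44 described imprinted genes outside the 42 had 25 tested. In siTfap4 against siNeg, 1 fell and 0 rose, beside the same background of 15.9% (4.24% higher, 11.7% lower). Gab1, a docking protein of receptor tyrosine kinases imprinted in placenta, fell from 197 and 119 to 29.5 and 33.4 CPM (log2 -2.33, SE 0.35, adjusted p = 0.00132). In siWiz and siZic2 against siNeg edgeR called 0 of the 25, and 1 and 0 had an unadjusted p under 0.05. The list's medians were -0.02, -0.12 and -0.22 in siTfap4, siWiz and siZic2.

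Promoter windows of 250 bases before each RefSeq start were found for 35 of the 42 imprinted genes, 52 windows in all. TGCCGC, searched on both strands, was in 7 of these windows, belonging to Mcts2, Meg3, Mest, Nap1l5, Plagl1 and Zim1, and in 8.68% of the 32851 windows of all genes. CAGCTG, which is its own reverse complement, was in 6 windows, those of Cd81, Commd1, Mest, Nap1l5, Phlda2 and Slc38a4, and in 13% of all windows. The Commd1 match lay in a second, inner window at chr11:22972867-22973116, minus strand, inside the Zrsr1 exon. Windows of imprinted genes held a median of 10 CpG, from 0 to 40, against 6 in all windows. A match describes letters only, and no binding was measured here.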

How the data were processed

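Polyadenylated RNA of 8 libraries was measured. The deposited values are raw counts per Ensembl gene made by the authors, without normalization. Trim Galore and the build GRCm38 are named per the submitters' processing notes. The aligner, counting program, annotation, strand setting and any molecular identifiers were not given in the sources used here. Of the 55421 identifiers 55240 were matched to GENCODE M21. Without a stated strand setting, reads of overlapping opposite-strand genes cannot be told apart. Examples are Commd1 and Zrsr1, Gnas and Nespas, Mest and Copg2, and Ube3a and Snhg14. Reads shared with same-strand gene models may have been left out or split. Counting error limits low genes, and PCR copies are not independent molecules.

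Genes were filtered with filterByExpr, scaled with TMM and fitted with edgeR 4.0.16 in R 4.3.3 (quasi-likelihood, 1 mean per group, all 8 libraries, no block). The threshold was a Benjamini-Hochberg adjusted p of 0.05. The common dispersion gave a biological coefficient of variation of 22.2%. SEs were derived from the quasi-likelihood F statistic. The script was tested on simulated data. Duplicates differed by more than counting noise in every group. The floor for a count of 0 was 3 counts.

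Alternatives were RLE size factors, library totals, a filter of 1 count, a filter of 5 CPM on the mean, fitting only the compared groups, a replicate block, leaving out each library in turn, and DESeq2 1.42.0. Leaving out both siTfap4 libraries, with and without the block, was chosen after seeing the data. With a library left out, its partner library was assumed to vary like those of other groups.

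The imprinted genes, lists and tests were chosen with earlier results of these data known. Values in every library were given for genes called against siNeg, the 6 highest in mean CPM, the 2 smallest p in each comparison with siNeg, and the H19-Igf2 and Dlk1-Meg3 clusters. Of the imprint-keeping list, up to 4 called genes, or else the smallest p, were named. Zrsr1, H13, Igf2r, Airn, Ddc, Tssc4 and Inpp5f were added after their values were seen, as neighbours or as genes called between siPOOLs or separated from siNeg. Allele classes and roles are literature knowledge. Promoter sequences are from RefSeq, GRCm38.p6.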

Additional observations from a re-analysis of the deposited data

How the results depend on the processing

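The number of imprinted genes called depended on the setting in the 3 comparisons that include siTfap4. Against siNeg, 2 were called, and 5 with a filter of 1 count, 1 with a mean of at least 5 CPM (which drops Sgce), 6 with the replicate number as a block and 1 to 4 with a library left out. Against siWiz, 2 were called, and 5 with a filter of 1 count, 1 with the compared groups alone, 6 with the block, 5 with DESeq2 and 1 to 7 with a library left out. Against siZic2, 6 were called, and 11 with the block and 1 to 7 with a library left out. With the block, 18.8%, 18.8% and 34.4% of imprinted genes were called against siNeg, siWiz and siZic2, and 22.1%, 20.9% and 30% of all genes. With the filter of 1 count the shares were 12.2%, 12.2% and 19.5%, and 10.9%, 10.6% and 13.8% of all genes. Many of the genes this filter adds to the background have very few counts. With a mean of at least 5 CPM the share against siNeg was 3.85%, and 22.2% of all genes, and with DESeq2 against siWiz 15.6% and 19.7%. Without siTfap4 replicate 1, siZic2 replicate 1 or siZic2 replicate 2 the count was 1 in all of these 3 comparisons, as it was against siNeg without siNeg replicate 1 and against siWiz without siWiz replicate 1. Without siTfap4 replicate 2 more imprinted genes were called in each of them, and more genes in all. The fits with 1 imprinted gene called also called fewer genes in all than the main settings did. Commd1 was called in these 3 comparisons under all 15 alternatives. No called value changed sign. In the other 3 comparisons 0 were called under every setting, those without siTfap4 included.

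Over all genes, calls in siTfap4 against siNeg ran from 504 to 3322 with a library left out (2330 with all), against siWiz from 401 to 3279 (2207; 1411 with the compared groups alone), and against siZic2 from 905 to 4057 (3379). In siWiz, 12 genes were called against siNeg with a filter of 1 count, 1 with DESeq2 and 2 without siTfap4 and with the block, against 0. In siWiz against siZic2, 23 were called with a filter of 1 count.

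The design gives no pairing beyond shared replicate numbers, and correlations of same-numbered libraries' deviations from the group means ran from -0.0427 (siTfap4 and siWiz) to 0.332 (siWiz and siNeg). Replicate 1 was above replicate 2 in all 4 groups for 11 of the 32 imprinted genes and 12.5% of all genes, and replicate 2 above replicate 1 for 8 of the 32 and 12.6% of all genes. With 2 libraries a group, genes such as Sgce, Dlk1, Usp29 and Slc22a18, under 8 CPM in every library, were measured with SEs of 0.50 or more in each comparison with siNeg.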
